A study of Nothobranchius furzeri with 8 samples.

Results

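CSMD3 encodes a very large transmembrane protein whose outer part is a chain of alternating CUB and sushi domains. The sushi domain is also called the complement control protein domain, because it is the building block of the regulators that restrain the complement cascade. In the mammalian brain CSMD3 sits on dendrites and takes part in their branching, and its relatives CSMD1 and CSMD2 are found at synapses. The gene was examined in RNAseq of whole brains of the turquoise killifish *N. furzeri*, as the row Nfu_g_1_012506 of the read count, RPM and RPKM tables, 1 gene of 26739 in the table and of 19517 tested. It was taken by its identifier, with earlier results of these libraries known. It is the only row that carries the name CSMD3, and the name comes from the human orthologue listed by the study. The name is known only from the study's list of genes that differed by condition. Names were found for 7344 of the 19517 genes tested, so a further copy without a name could be missed.

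Levels are given as read counts, as RPM (counts scaled to the library total), as RPKM (RPM divided by transcript length) and as CPM (counts scaled to the library total with TMM factors, which correct for library composition). The wild fish were 4 males of the population A41, labelled as strain MZM_A41 and 39 days post hatch, caught in a natural pond. The captive fish were 4 males of the strain MZM-0410, labelled 35 days post hatch, bred and singly housed in the laboratory. All 8 brains went through directional poly(A) library preparation and sequencing together. Wild brains reached the freezer in RNAlater, whereas captive ones were put on dry ice at dissection, so that origin, genetic background, diet, age and storage differ together between the groups and cannot be told apart. The labels give the fish as separate animals, which are numbered 3, 5, 7 and 11 in the wild group and named MZM_0410_124, MZM_0410_125, MZM_0410_126 and MZM_0410_127 in the captive group. Captive values are listed in this order. Total counts per library ranged from 11814586 to 14541119.

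CSMD3 was several times less abundant in wild than in captive brains, and the 2 groups lay far apart. The read counts were 105, 101 and 122 in wild fish 3, 5 and 7, and wild fish 11 had slightly more than fish 7 (8.61 against 8.39 RPM). In the captive fish they were 1110, 1048, 809 and 924. No wild fish came near any captive fish, although the wild libraries were on average the deeper ones. On the CPM scale the wild fish were at 7.42, 7.06, 8.38 and 8.59 and the captive fish at 95.6, 80.0, 65.1 and 64.5. Wild fish averaged 7.86 ± 0.74 CPM and captive fish 76.3 ± 14.7 CPM (SD, n = 4 each), so that the wild mean was 10.3% of the captive mean. Over the 16 pairs of a captive with a wild fish, the captive level was between 7.51 and 13.5 times the wild level.

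**Figure D1:**
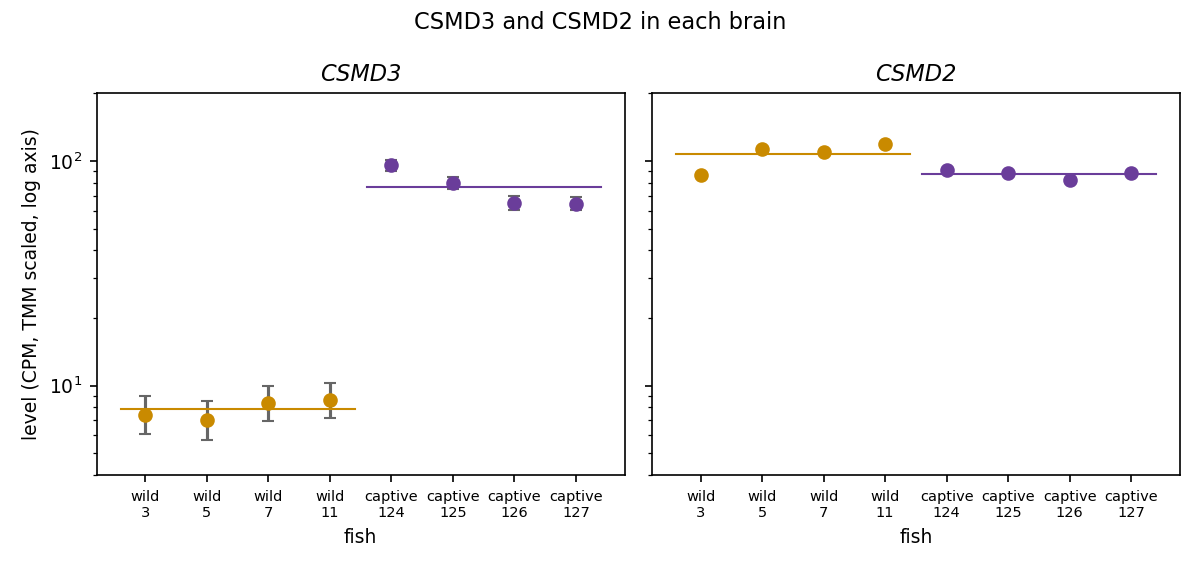
Level of CSMD3 and of its relative CSMD2 in each of the 8 brains, in CPM on a log axis; horizontal lines are group means, and bars on the CSMD3 points are exact 95% Poisson intervals, which cover counting error only. The wild fish lie at 7.06 to 8.59 CPM for CSMD3 and the captive fish at 64.5 to 95.6 CPM, whereas for CSMD2 the groups overlap.

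The log2 fold change of CSMD3 was -3.28 (SE 0.14) for wild against captive fish, with an adjusted p = 3.1e-07 from edgeR's quasi-likelihood test. In the same fit 41.6% of the genes tested differed between the groups at an adjusted p under 0.05, with 21.8% lower and 19.8% higher in wild fish. Of the named genes 65.9% passed. Passing the test is therefore common in these fish. By the p-value of that test CSMD3 took rank 46 of the 19517 genes. By log2 fold change CSMD3 took rank 171 from the bottom of the 19517 genes, so that 0.871% of genes had a lower value, and among the named genes 37 were at or below it, CSMD3 included. For genes that passed, the typical size of the log2 fold change (median without sign) was 0.52. The study picked CSMD3 as one of its top genes with the help of these same 8 libraries. The p-value, the size of the difference and their ranks are therefore not independent evidence for the difference. In an exact two-sided permutation test of the CPM the p was 0.0286, the smallest that 4 fish against 4 allow. Wild fish all lay below captive fish for 20.7% of the genes tested, and the groups did not overlap in either direction for 39.8%.

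The level of CSMD3 was also set beside that of the other abundant genes. In captive fish 3264 genes had a mean CPM at least as high as that of CSMD3, and 8 of these, CSMD3 among them, had a wild mean as low as its own or lower. Most of the 3264 genes start from a higher level than CSMD3 and would need a larger fall to reach it, so this count is a description. Their median log2 fold change was -0.06. The gap between the groups was taken as the lowest captive fish over the highest wild fish. It was at least as wide as in CSMD3 for 90 of the 19517 genes, CSMD3 included. A difference of the same size in the other direction was rarer. Among genes that passed the test, 8 were higher in wild fish by at least as much as CSMD3 was lower. Against these, 170 were lower by at least as much, CSMD3 included.

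**Figure D2:**
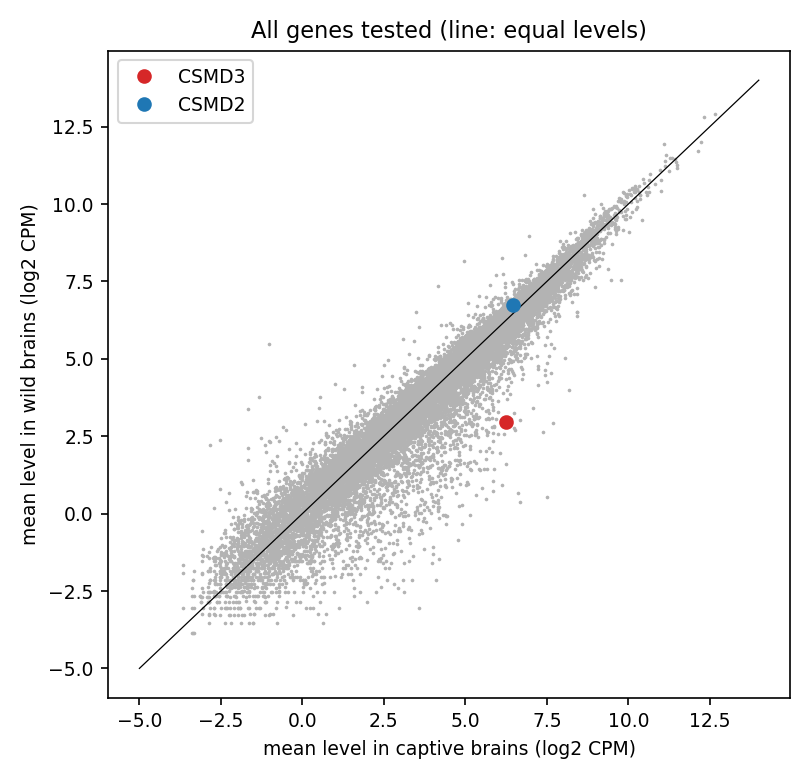
Mean level in wild brains against mean level in captive brains for the 19517 genes tested, both as log2 CPM, each grey point 1 gene, with the line of equal levels. CSMD3 (76.3 CPM in captive, 7.86 CPM in wild fish) lies far below the line and CSMD2 (87.7 and 107 CPM) just above it.

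The rank of the gene within each brain shifted accordingly. By CPM it stood at places 2528 to 3847 of the 19517 genes in the captive fish and at places 12077 to 12766 in the wild fish. Counted per length, as RPKM, it was at 18.2, 15.2, 12.6 and 12.4 in the captive fish and at 1.46, 1.39, 1.62 and 1.67 in wild fish 3, 5, 7 and 11. This put it at places 4672 to 6690 in captive and 14699 to 15238 in wild brains. CSMD3 was thus in the upper part of the brain transcriptome in every captive fish and below its middle in every wild fish.

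The spread between fish differed in the 2 groups. The coefficient of variation of the CPM was 9.38% in wild fish, where counting error alone gives a mean of 9.44%, and the exact 95% Poisson intervals of the 4 wild fish all overlapped, from 5.75 to 8.58 CPM for fish 5 to 7.14 to 10.2 CPM for fish 11. No difference among the wild fish was detectable at this depth. In captive fish the coefficient of variation was 19.3% against 3.22% from counting error. Fish MZM_0410_124 had an interval of 90.1 to 101 CPM and MZM_0410_125 one of 75.2 to 85.0 CPM, both above those of MZM_0410_126 (60.7 to 69.8 CPM) and MZM_0410_127 (60.4 to 68.8 CPM). Over 12992 genes whose mean count reached 100, the median coefficient of variation in captive fish was 7.87%, and 9.82% of genes varied at least as much as CSMD3. MZM_0410_124, the highest, also had the smallest library, with 11814586 counts; whether depth has a part in this was not tested. Without MZM_0410_124 the log2 fold change was -3.16 (adjusted p = 3.5e-07 from edgeR's quasi-likelihood test).

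The transcript model of this gene is 5170 nt long by the ratio of RPM to RPKM. Long transcripts tended to be lower in wild fish. Of the 4036 tested genes with a transcript at least as long, 1538 (38.1%) were lower and 404 higher, with a median log2 fold change of -0.14. Among the 15481 shorter ones 17.5% were lower, with a median of 0.09. CSMD3 took rank 23 from the bottom among the 4036 long genes, and with the trend on length removed its log2 fold change was -3.28. Both values rest on the model length of 5170 nt, and the model may cover only part of the gene. RNA integrity as listed by the study was lower in every wild fish than in every captive fish. With the integrity number as a covariate CSMD3 had a log2 fold change of -3.08 but did not pass the test (adjusted p = 0.073 from edgeR's quasi-likelihood test). In that fit 46 of the 19517 genes passed; integrity and origin cannot be told apart in these fish.

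CSMD2 (Nfu_g_1_012913), the other named member of the CSMD family and a synaptic protein in mammals, did not share the low wild level. Its CPM was 87.0, 114, 110 and 119 in wild fish 3, 5, 7 and 11 and 91.0, 88.3, 82.6 and 88.8 in the captive fish. Wild fish 3 lay within the captive range, so the groups overlapped. The log2 fold change was 0.29 (SE 0.09, adjusted p = 0.026 from edgeR's quasi-likelihood test), and CSMD2 did not pass when any one of wild fish 5, 7 and 11 or MZM_0410_125, MZM_0410_126 and MZM_0410_127 was left out (log2 fold changes 0.24 to 0.29, adjusted p between 0.050 and 0.072).

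The ratio of CSMD3 to CSMD2 within a brain was lower in every wild fish than in every captive fish. Per length, CSMD3 was the more abundant of the pair in every captive fish, at 2.16 to 3.13 times the RPKM of CSMD2, and the less abundant in every wild fish, at 0.185 to 0.254 times. As a share of the summed RPKM of the 2 genes, CSMD3 made up 68.4% to 75.8% in captive and 15.6% to 20.3% in wild brains. The log2 ratio of the counts, with 0.5 added to each, averaged -3.76 ± 0.19 for wild and -0.22 ± 0.23 for captive fish (SD, n = 4 each). By counts, CSMD3 was below CSMD2 in every wild fish and in 3 of the 4 captive fish, where the log2 ratios were 0.07, -0.14, -0.34 and -0.46. The difference of -3.54 had p = 0.0286 in an exact two-sided permutation test, the smallest that this design allows. Such a ratio does not depend on how the libraries are scaled. Since CSMD2 differed little between the groups (log2 fold change 0.29), the ratio largely restates the difference in CSMD3 itself. Its p-value is therefore not separate evidence for that difference. The transcript model of CSMD2 is 15391 nt long against 5170 nt for CSMD3, and the comparison per length rests on these lengths. The model of CSMD3 is short beside that of CSMD2 and may cover only part of the gene, which was not tested.

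Genes of other proteins with CUB or sushi domains moved in both directions, and CSMD3 had the lowest log2 fold change among them. Of a list of 54 symbols, 19 were found as names, on 22 genes, all of which were tested. In wild fish 11 of the 22 were lower, 4 were higher and 7 did not pass, with a median log2 fold change of -0.19. Among the 7344 named genes tested, 33.4% were lower and 32.5% higher, with a median of 0.02. The name of 13 of the 22 genes is known only from the list of genes that differed by condition in the study, which was drawn up partly on these libraries, so their count is not independent evidence. By RPKM CSMD3 held place 11 of the 22 genes in captive brains and place 20 in wild brains.

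Among the genes of the list that were lower in wild fish, SCUBE3, a secreted protein with EGF and CUB domains, averaged 9.44 ± 1.58 CPM over wild and 35.9 ± 4.22 CPM over captive fish (SD, n = 4 each; log2 fold change -1.93, SE 0.13). SVEP1 encodes a matrix protein with many sushi domains. The 2 genes of this name had log2 fold changes of -1.15 (SE 0.16) for Nfu_g_1_003652 and -0.72 (SE 0.10) for Nfu_g_1_016882. Their transcript models are 11884 nt and 549 nt long, in this order. Whether the shorter one covers a whole gene was not tested. BMP1, a protease that processes procollagen, SCUBE2 and 1 of the 2 genes named LRP12 (Nfu_g_1_022067) were lower as well, at -0.52, -0.40 and -0.78. SCUBE2 did not pass without wild fish 5 or captive fish MZM_0410_125 or MZM_0410_127. The neuropilin gene NRP1, a receptor for semaphorins, was lower in both copies, by log2 fold changes of -0.26 (Nfu_g_1_013196) and -0.46 (Nfu_g_1_013367).

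Other neuronal genes with both domains were the SEZ6 genes, which act in dendrites and synapses of the mouse. SEZ6L averaged 120 ± 2.85 CPM over wild and 152 ± 10.7 CPM over captive fish (log2 fold change -0.34, SE 0.06), and SEZ6 averaged 147 ± 7.12 against 132 ± 15.4 CPM (log2 fold change 0.15, adjusted p = 0.18 from edgeR's quasi-likelihood test). Higher in wild fish were NETO2, a CUB domain partner of kainate receptors, at 172 ± 9.08 against 141 ± 13.3 CPM, and SUSD3 and SRPX, with log2 fold changes of 0.69 (SE 0.20) and 0.47 (SE 0.15). SUSD3 did not pass without wild fish 3 or MZM_0410_124, and SRPX did not pass in 6 of the 8 fits that leave out 1 fish. NRP2, DCBLD2, SUSD6, CDCP1, SRPX2 and the other gene named LRP12 (Nfu_g_1_003696) did not pass, with log2 fold changes between -0.12 and 0.35. SRPX2 passed, at 0.51, when wild fish 5 was left out.

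**Figure D3:**
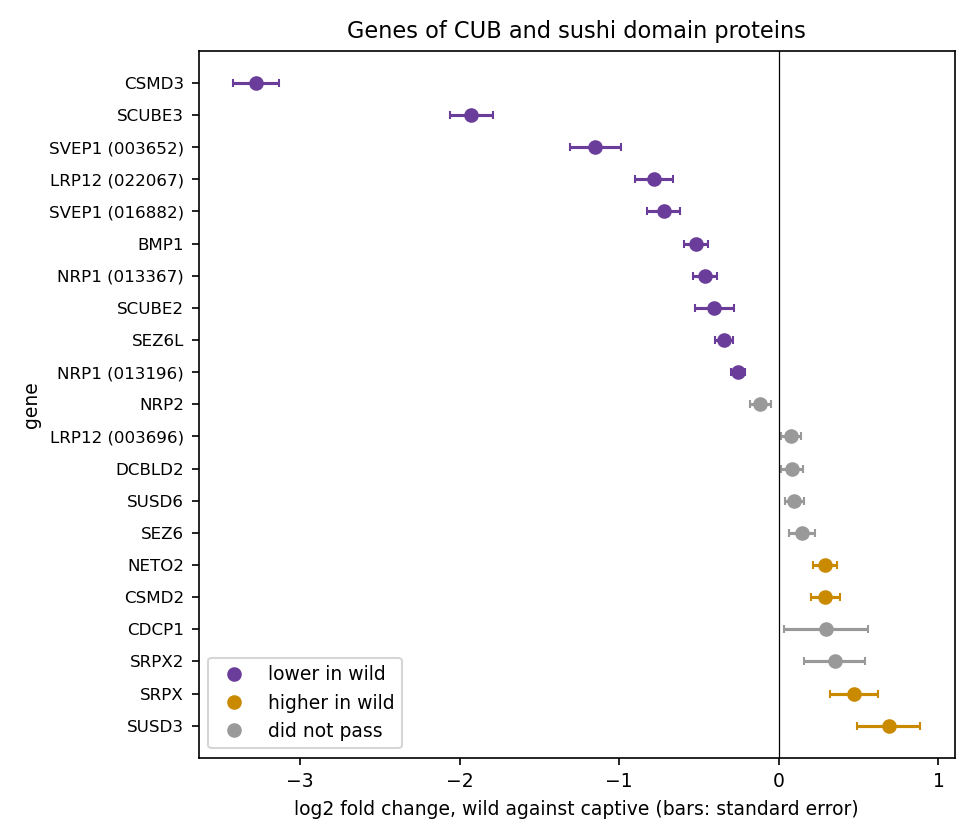
Log2 fold change of wild against captive fish for the tested genes of CUB and sushi domain proteins that are named here, with bars of 1 standard error, coloured by whether the gene passed the test and in which direction. CSMD3 has the lowest value (-3.28), SCUBE3 lies at -1.93, and SUSD3 has the highest value (0.69).

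Few genes of the complement cascade itself could be followed, since 6 of 44 symbols were found as names. C7, a component of the membrane attack complex, fell, with 5.34 ± 1.97 CPM for wild against 18.7 ± 3.20 CPM for captive fish (log2 fold change -1.81, SE 0.25). ITGB2, the beta chain of the complement receptors on microglia and other leukocytes, rose from 48.1 ± 2.91 to 63.0 ± 8.01 CPM (log2 fold change 0.39, SE 0.09). The name ITGB2 is known only from the study's list of genes that differed by condition. C4B averaged 34.8 ± 3.90 against 58.1 ± 38.1 CPM and did not pass (adjusted p = 0.12 from edgeR's quasi-likelihood test), though it did without MZM_0410_124 (log2 fold change -0.97, adjusted p = 0.042). Its highest value was 113 CPM in MZM_0410_126, and without that fish the log2 fold change was -0.21. CLU, which encodes the complement inhibitor clusterin, was the most abundant of the 6 per length, at 355 RPKM in wild and 307 RPKM in captive fish. It did not pass either (log2 fold change 0.18), but did without wild fish 5 (log2 fold change 0.34, adjusted p = 0.032 from edgeR's quasi-likelihood test). VTN (log2 fold change -0.00, SE 0.18), which encodes vitronectin, and SRPX2, already named above, did not pass. Complement activity was not measured in these fish.

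Genes of dendrite growth and spines, the process in which CSMD3 takes part in mammals, were mostly lower in wild brains. Of 58 genes tested 43 (74.1%) fell, 6 rose and 9 did not pass, with a median log2 fold change of -0.40. Among all genes tested 21.8% were lower, among the named genes 33.4% and among genes with transcripts at least as long as that of CSMD3 38.1%. None of the 58 was as low as CSMD3, and the lowest value was -2.93. The names of 30 of the 58 genes come from the condition-dependent genes of the study alone, so this share is not independent of these libraries. The neurotrophin receptor gene NTRK2 (Nfu_g_1_009425) averaged 74.7 ± 6.33 CPM over wild against 222 ± 12.7 CPM over captive fish. NLGN2, the neuroligin of inhibitory synapses, was at 21.0 ± 2.85 against 81.3 ± 4.32 CPM, and the adhesion gene DSCAM at 47.7 ± 4.66 against 108 ± 1.86 CPM. The genes that rose with the smallest p were PTPRF (Nfu_g_1_000865), a receptor phosphatase that organises synapses, LRRTM1, a postsynaptic adhesion protein, and the small GTPase gene RAC1. Their log2 fold changes were 0.49, 0.30 and 1.04. CTNNB1 (Nfu_g_1_010036), which encodes beta-catenin, had the highest RPKM of the list, at 154 in wild and 133 in captive fish, and a log2 fold change of 0.18 (SE 0.04); it did not pass with the trend on length removed (adjusted p = 0.085 from edgeR's quasi-likelihood test).

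CSMD3 was also low in wild fish when set against the neuronal markers of the same brain. In bulk tissue fewer cells of a type and less RNA per cell cannot be told apart. The summed RPKM of 24 marker genes of mature neurons ranged from 3900 to 4166 in wild and from 4059 to 4372 in captive fish, with 6 genes higher, 11 lower and 7 not passing. These counts, and those of the other cell types, stand beside 32.5% higher and 33.4% lower among all named genes. The names of 10 of the 24 neuronal genes come only from the condition-dependent genes of the study. The same holds for 5 oligodendrocyte and 3 radial glia genes, so the counts are not independent of these libraries. Per 1000 RPKM of the summed neuronal markers, CSMD3 had 0.344 to 0.427 RPKM in wild and 2.93 to 4.16 RPKM in captive fish, a mean difference of -3.15 on the log2 scale. Since the marker sums of the groups are close, this ratio largely restates the difference in CSMD3 itself. The summed markers of radial glia and astrocytes were higher in every wild fish (4696 to 6329 RPKM against 3022 to 4072, 5 of 9 genes higher and 2 lower), and those of oligodendrocytes overlapped (5746 to 8720 RPKM in wild and 8312 to 11948 in captive fish, 2 of 10 genes higher and 3 lower). Endothelial markers also overlapped (47.9 to 68.4 against 44.2 to 51.7 RPKM, 2 of 5 higher and 1 lower), as did skeletal muscle markers (6.70 to 10.5 against 3.45 to 17.4 RPKM, 1 of 2 higher), whereas erythrocyte markers were lower in every wild fish (30.4 to 40.5 against 44.1 to 56.7 RPKM, 1 of 5 higher and 3 lower). Microglia were represented by CD74 alone, with a log2 fold change of 0.90 that passed the test. Its RPKM overlapped between the groups, since wild fish lay at 9.97 to 29.0 and the lowest of them was within the captive range, which began at 9.75. No marker of eye and pineal gland had a name. The most abundant markers per length were STMN2 for neurons, FABP7 for radial glia, MBP for oligodendrocytes, EGFL7 for endothelium, SLC4A1 for erythrocytes and MYL1 for muscle. FABP7 alone averaged 2582 RPKM over wild and 1417 RPKM over captive fish, and MBP 3477 and 4034 RPKM. Single genes thus weigh heavily in the sums of radial glia and of oligodendrocytes. No marker gene with a name was at 0 in all brains. The part of glial and blood cells in the level of CSMD3 was not tested.

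The named genes with the profile most like that of CSMD3 over the 8 brains were SLC20A2, ZNF646, CBL, NOVA2 and MMP15. Likeness was measured as the root mean square distance between log2 CPM profiles, each centred on its mean over the 8 libraries, over 6541 named candidates whose mean count reached 100. SLC20A2, a phosphate transporter, was the closest at a distance of 0.18. Its CPM was 20.4, 17.0, 18.5 and 20.9 in wild fish 3, 5, 7 and 11 and 179, 214, 148 and 179 in the captive fish. Its highest captive fish was MZM_0410_125 and not MZM_0410_124 as for CSMD3. Both genes were lowest in wild fish 5 and highest in wild fish 11. For CSMD3 no difference among the wild fish was detectable, so this shared order is no measure of likeness. The others were the zinc finger gene ZNF646 (Nfu_g_1_019129, distance 0.26, from 151 to 18.0 CPM), the ubiquitin ligase gene CBL (Nfu_g_1_006108, distance 0.27, from 20.6 to 2.42 CPM), the neuronal splicing factor gene NOVA2 (Nfu_g_1_016415, distance 0.27, from 173 to 22.5 CPM) and the membrane metalloprotease gene MMP15 (distance 0.30, from 28.2 to 3.73 CPM). With 2 groups this far apart, the distance mostly reflects the size of the difference between them, which lay between -3.23 and -2.92 on the log2 scale for these 5 genes. For ZNF646, CBL and NOVA2 the values belong to single copies, since other tested genes carry the same name.

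**Figure D4:**
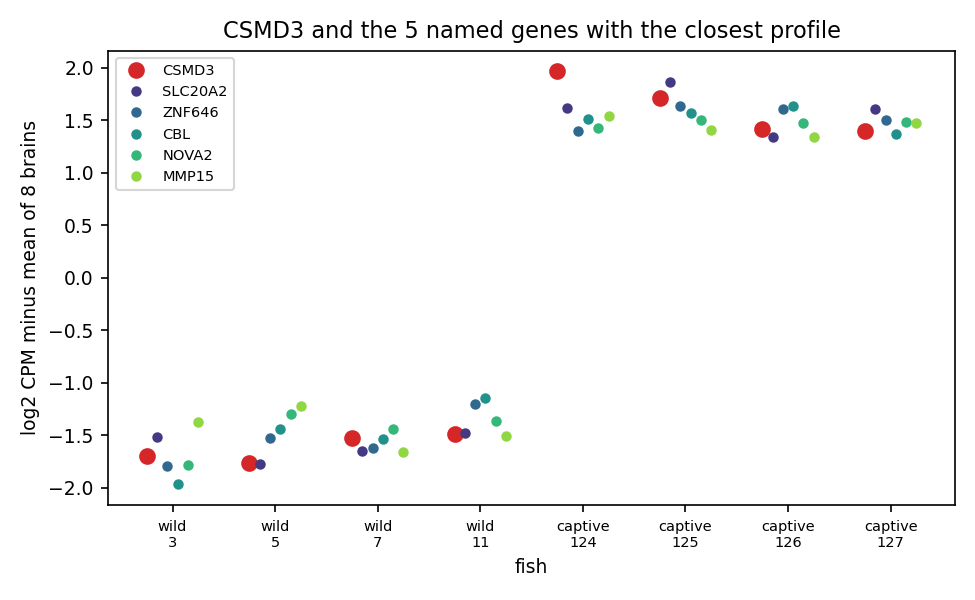
Centred log2 CPM (the log2 CPM minus the mean over the 8 brains) of CSMD3, large points, and of the 5 named genes with the closest profile, small points, in each fish. All 6 genes lie below 0 in the 4 wild fish and above 0 in the 4 captive fish, and CSMD3 is highest in MZM_0410_124.

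The study also measured CSMD3 by RT-qPCR, in females and males, and reports that its differential expression between wild and captive fish held there. Those values were not used here. Counts per gene cannot show whether reads from the wild population map to this gene model as well as reads from the captive strain, and this was not tested.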

How the data were processed

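RNAseq was run on 8 whole brains, 4 per group. According to the submitters' notes and methods, base calls went through bcl2fastq 2.20.0.422, alignment to a hard-masked *N. furzeri* genome used TopHat2 2.1.0, and featureCounts 1.6.5 assigned reverse-strand reads to genes. The deposited tables hold these counts, and the authors computed RPM and RPKM from them. The deposited RPM equal counts over column totals, and transcript lengths were taken from RPM and RPKM. Coordinates and sequences are not given here.

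The RPM and RPKM were used for levels and the counts for tests. Genes with at least 1 count in all 8 libraries were tested in R 4.3.3 with edgeR 4.0.16 (TMM, quasi-likelihood F-test, Benjamini-Hochberg adjustment, threshold 0.05), with origin as the only term. Single values per fish were compared by exact permutation tests over 70 splits. No 2 libraries were alike within sampling noise (chi-square per gene 6.72 to 14.5 within groups). Depth is 11814586 to 14541119 counts, and Poisson intervals (95%) cover counting error only. The test was tested on simulated data.

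Gene names come from supplementary tables of the study (7344 of the tested genes). The gene, the 3 pathway lists and the 8 cell type lists were chosen with earlier results of these data known. Named are all CUB and sushi and complement genes found except 1 that is counted but not reported here, the 3 dendrite genes of lowest p that rose, the 3 that fell and the most abundant one, and the 5 closest profiles. Alternatives were DESeq2 1.42.0, other scaling and filters, limma 3.58.1 on log2 RPM or RPKM, removal of the length trend, RNA integrity as covariate, a test against 1.5-fold, and leaving out each library. The ratio to neuronal markers was added after seeing the data.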

Additional observations from a re-analysis of the deposited data

Results flagged for a closer look

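In groups of 4, a fish was noted when its gap to the nearest other fish was a larger part of the group's range than Dixon's 95% critical value. Chance gives this for about 1 in 20 groups, and 7 of 80 groups were noted; CSMD3 was not among them. Among the CUB and sushi genes, wild fish 3 stood below the others for SEZ6L (116 against 121 to 122 CPM). For NRP1 (Nfu_g_1_013196) wild fish 11 stood above (202 against 194 to 195 CPM) and MZM_0410_127 below (227 against 236 to 238 CPM). For the other NRP1 gene (Nfu_g_1_013367) wild fish 7 was at 167 CPM against 142 to 145 CPM. For C4B wild fish 5 was at 40.7 CPM against 32.5 to 33.3 CPM. RAC1 was at 16.4 CPM in captive fish MZM_0410_124 and at 7.54 to 8.40 CPM in the other captive fish, and NLGN2 at 74.8 CPM in captive fish MZM_0410_126 against 83.2 to 83.8 CPM.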

How the results depend on the processing

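The log2 fold change of CSMD3 was between -3.30 and -3.15 with DESeq2, both other scalings, both other filters, the length trend removed, the test against 1.5-fold and the 3 fits with limma, and it passed each of these tests. Leaving out 1 library gave -3.36 to -3.16. With RNA integrity as a covariate the value was -3.08 and did not pass (adjusted p = 0.073 from edgeR's quasi-likelihood test); 46 genes were then called in place of 8115, and 1555 against a 1.5-fold change. Without 1 library 6818 to 7809 genes were called. The log2 ratio of CSMD3 to CSMD2 stayed between -3.62 and -3.44 when 1 fish was left out. With RNA integrity as a covariate SRPX turned to -0.20 and ITGB2 to -0.048, neither passing. No paired analysis was possible because the fish carry no shared numbers.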
